A study of Homo sapiens with 15 samples.

Results

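The fibroblast line MRC5 and the SCLC line H196 were each sequenced alone and after co-culture with the other, and the change in one partner was set against the change in the other, gene by gene. The groups were MRC5 cells grown alone (MRC5_Mo), MRC5 cells grown with H196 cells (MRC5_CoH196), H196 cells grown alone (H196_Mo) and H196 cells grown with MRC5 cells (H196_Co). There were 3 libraries per group, which makes 12 of the 15 libraries of the series, and the 3 libraries of MRC5 cells grown with H69 cells did not enter the comparison. MRC5 is a primary human lung fibroblast strain, H196 an established human small cell lung cancer line of the non-neuroendocrine (non-NE) kind, and none of the groups carried an added gene or a drug. In co-culture the partner sat on a porous transwell insert and shared medium but not surface with the cells that were collected after a week, so the MRC5_CoH196 and H196_Co libraries came from separate wells. SCLC lines and MRC5 cells were otherwise kept in different media, and the medium of the shared wells is not given in the sources used here, so a change of medium and the presence of the partner cannot be told apart. The study calls the libraries parallel replicates, so p-values measure the spread between these libraries, which may be technical. Genes were joined by gene ID over both tables, which list 15320 genes in common, and 13540 of them were tested.

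Fibroblasts and carcinoma cells that share medium exchange growth factors and metabolites and compete for glucose and oxygen. A cell short of oxygen stabilises hypoxia-inducible factor (HIF), which raises glucose transporters, glycolytic enzymes, VEGFA and the enzymes that hydroxylate collagen. A cell that leaves the division cycle lowers the genes of DNA replication, which E2F factors control, and a cell that slows its growth lowers the genes that build ribosomes. The comparison asks which of these programs moved in both partners and which in one of them. The test of the difference is the interaction, the MRC5 change (MRC5_CoH196 minus MRC5_Mo) minus the H196 change (H196_Co minus H196_Mo), both on the log2 scale.

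Library totals ran from 16073597 to 19170560 counts. The fibroblast markers matched the labels of the lines. The 8 of 9 fibroblast markers listed in both tables (among them COL1A1, DCN and PDGFRB) summed to 12331 to 13091 CPM (counts scaled to a common library total) in MRC5_CoH196, 26297 to 29338 CPM in MRC5_Mo and 2.05 to 3.15 CPM in the H196 libraries, where 7 of the 8 were under 1 CPM in every library. The 3 of 7 neuroendocrine markers listed in both tables (SYP, NCAM1 and DLL3) summed to at most 1.12 CPM in MRC5 and to 24.2 to 27.1 CPM in H196. The 4 non-neuroendocrine markers (YAP1, REST, VIM and AXL) summed to 7507 to 10472 CPM in MRC5 and to 5199 to 5968 CPM in H196. These values do not show that H196 is non-NE, which is the label given by the study. The MRC5_CoH196 libraries held more reads of genes typical of H196 than MRC5_Mo did, and whether these were H196 RNA or were induced in MRC5 was not tested. Read as partner RNA, 74 genes that reached 20 CPM throughout H196_Mo and stayed under 0.5 CPM throughout MRC5_Mo put its share at 0.799%, 0.904% and 0.269% in the 3 co-culture libraries, against at most 0.0133% of MRC5 RNA in the H196_Co libraries, by 187 genes chosen in the mirrored way. Class counts with these shares subtracted are given below, and results for single genes or lists only where stated. Gene levels below are CPM with library totals scaled by TMM factors (trimmed mean of M values).

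Co-culture changed many genes in MRC5 and few in H196, and what rose in H196 had mostly risen in MRC5 as well. A gene was called changed at a Benjamini-Hochberg adjusted p under 0.05 (edgeR quasi-likelihood test over all 13540 genes) and an absolute log2 change above 0.58. In MRC5, 2281 genes rose (16.8% of those tested) and 1924 fell (14.2%), and in H196, 466 rose (3.44%) and 75 fell (0.554%). On log2(FPKM + 0.1), scaled by library totals alone, the split was 1504 to 2855 in MRC5 and 324 to 123 in H196, and the median MRC5 change lay at -0.19 where it lay at -0.02 on the main scale. The interaction was called for 3343 genes (24.7% of those tested). The MRC5 change was the higher one in 1637 of them and the lower one in 1706, and which side was larger depended on the setting. The split was 1328 and 2170 on log2(FPKM + 0.1), 819 and 1558 on log2(FPKM + 1), 1839 and 1449 with DESeq2 size factors and 1834 and 1484 without a filter on low counts. Without any 1 of the 6 MRC5 libraries, 1759 to 1880 were higher and 1337 to 1475 lower.

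Of the tested genes, 11679 were expressed above the filter on low counts in each line taken alone, and only these were sorted into shared and one-sided changes. Their log2 changes had an SD of 0.71 in MRC5 and of 0.27 in H196, while the median standard error of a gene was similar at 0.080 and 0.077. In MRC5 15.6% of them rose and 14.9% fell, and in H196 3.03% rose and 0.514% fell. Among them 239 genes (2.05%) rose in both partners and 22 (0.188%) fell in both. The 239 were 13.1% of the genes that rose in MRC5 and 67.5% of those that rose in H196, and the 22 were 1.26% and 36.7% of those that fell. Across genes the changes of the partners had a Pearson correlation of 0.45 (Spearman 0.35, 11679 genes that share libraries and are no replicates), and 61.4% had the same sign.

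A gene was assigned to one partner only where it was called there, the interaction was called in the same direction, and the 95% interval of the other partner's change lay within 0.58 of 0 on the log2 scale. By this rule 902 genes (7.72%) rose and 1190 (10.2%) fell in MRC5 only, and 33 (0.283%) rose and 11 (0.0942%) fell in H196 only. The balance of rises and falls in MRC5 only was not stable. It was 1045 to 996 with DESeq2 size factors, and the rises outnumbered the falls without any 1 of the 6 MRC5 libraries (1012 to 1085 rose and 923 to 1056 fell). The 11 falls in H196 only became 18 without the second H196_Co library. Another 20 genes moved in opposite directions, 9 of them up in MRC5 and 11 up in H196, and the 11 became 6 without the first MRC5_Mo library. For 902 further genes called in MRC5 and 76 called in H196 the interaction was not called, so these were assigned to neither kind. With partner RNA subtracted, 260 genes changed alike, 2118 in MRC5 only, 39 in H196 only and 21 in opposite directions.

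**Figure D1:**
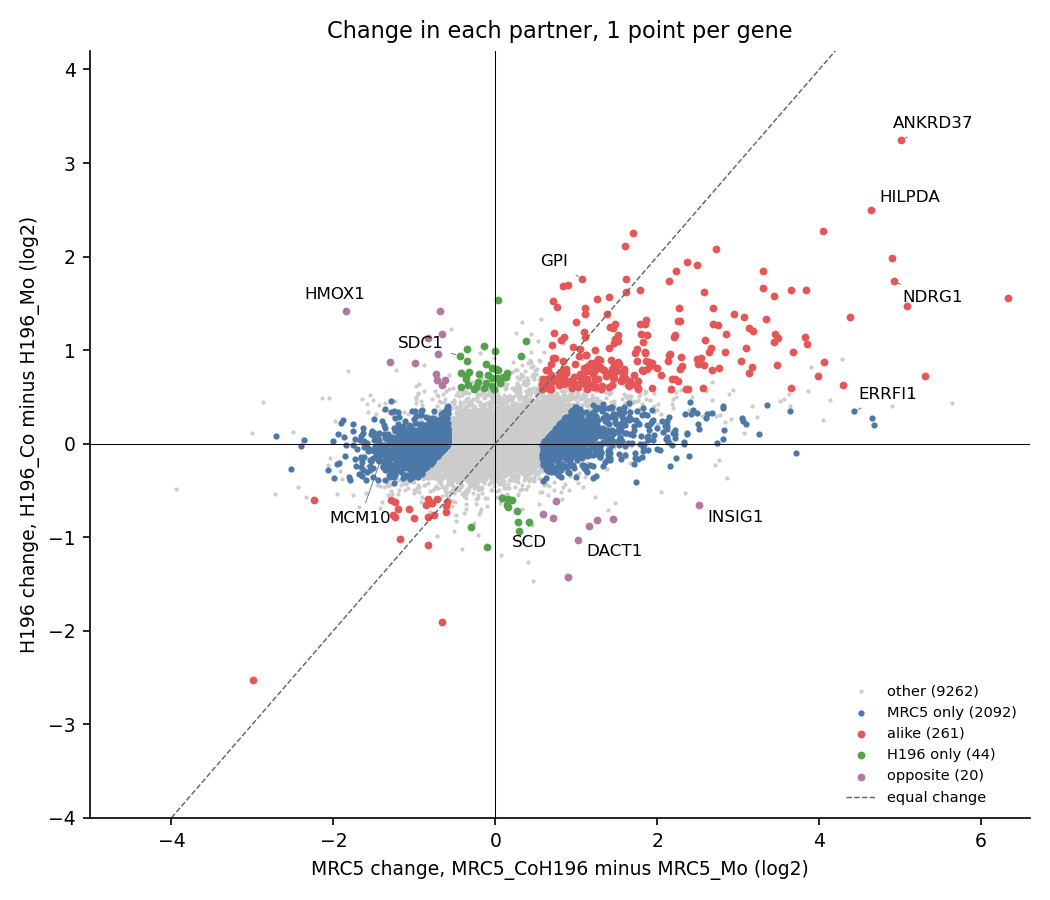
Change in MRC5 (horizontal axis, log2) against change in H196 (vertical axis, log2), 1 point for each of 11679 genes expressed in both lines, coloured by class, with a dashed line of equal change. Red points (261, changed alike) fill the upper right mostly below the line, blue points (2092, MRC5 only) spread along the horizontal axis, and green (44, H196 only) and purple points (20, opposite) are few, with 5 genes outside the axes.

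The shared response was led by genes known to rise in oxygen shortage. The study reports that HIF-1α protein did not change in H196 cells after co-culture. Whether oxygen or HIF moved these genes was not tested here. All 22 measured hypoxia reporters, a list of HIF target genes, rose in MRC5 (15.6% of all genes did) and 20 of them rose in H196 (3.03% of all genes did), so that 20 of 22 rose in both. The median log2 change of the list was 2.70 in MRC5 and 1.15 in H196, against -0.02 and 0.01 over all genes. The list was chosen with earlier results of these data known, so these shares are no independent test. Of 158 measured genes of the Hallmark hypoxia set, 110 rose and 6 fell in MRC5, and 58 rose and none fell in H196. ANKRD37, an ankyrin repeat protein known as a HIF target, was at 0.655, 0.947 and 0.963 CPM in MRC5_Mo and 28.5, 25.7 and 29.1 CPM in MRC5_CoH196. In the cancer cells the same gene was at 3.41, 2.86 and 3.98 CPM in H196_Mo and 43.9, 25.95 and 27.3 CPM in H196_Co. No library of a co-culture came near its mono-culture, and both partners ended at a similar level from different starting levels. The log2 change was 5.01 (SE 0.35) in MRC5 and 3.24 (SE 0.19) in H196, and the first H196_Co library lay above the others.

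HILPDA, a lipid droplet protein that inhibits triglyceride breakdown, showed the same order. It was at 8.64, 8.70 and 7.94 CPM in MRC5_Mo and 200.3, 195.6 and 232 CPM in MRC5_CoH196, and at 17.2, 16.6 and 14.9 CPM in H196_Mo and 101, 90.1 and 83.5 CPM in H196_Co. The change in MRC5 was the larger one, with an interaction of 2.13 (SE 0.13, adjusted p = 1.21e-12). NDRG1, a stress-induced protein and a long-known HIF target, had the largest interaction among the shared genes that pass 5 CPM in each line. It was at 108, 103 and 107 CPM in MRC5_Mo and 3337, 2834 and 3447 CPM in MRC5_CoH196. The H196 level was far lower throughout, at 4.27, 3.81 and 4.27 CPM in H196_Mo and 14.4, 14.4 and 12.3 CPM in H196_Co, so the same gene moved over a different range in each partner (interaction 3.18, SE 0.14). VEGFA, the angiogenic growth factor, rose by 3.83 in MRC5 and by 1.14 in H196 (log2), and ANGPTL4, a secreted inhibitor of lipoprotein lipase, by 4.89 and 1.98.

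The interaction was called toward MRC5 in 19 of the 22 hypoxia reporters, against 12.4% of all genes measured in both lines. It was not called in ADM, KDM4B and STC2. STC2, a secreted glycoprotein of stressed cells, changed by 1.62 in MRC5 and 1.76 in H196, with an interval of the difference from -0.33 to 0.05. KDM4B, a histone demethylase, changed by 0.86 and 0.76. BNIP3L and LOX were the reporters that rose in MRC5 without a call in H196. With partner RNA subtracted, 1 of the reporters was classed as moving in opposite directions. LOX, which crosslinks collagen, was at 605, 602 and 556 CPM in MRC5_Mo and 3696, 3833 and 4018 CPM in MRC5_CoH196, and at 1.86, 1.52 and 1.82 CPM in H196_Mo and 1.75, 1.34 and 1.34 CPM in H196_Co, where the groups overlapped.

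Glycolytic genes rose in both partners too, by amounts closer to each other. Of 24 measured genes on the chosen list, 20 rose in MRC5 (15.6% of all genes did) and 16 in H196 (3.03%). None of the list fell, and 16 rose in both (2.05%), with medians of 1.09 and 0.83 log2. The wider Hallmark glycolysis set was mixed in MRC5, where 56 of 165 rose and 21 fell (14.9% of all genes fell). In H196 34 of that set rose and none fell, and 31 rose in both. Its medians were 0.14 in MRC5 and 0.10 in H196. HK2, the hexokinase that commits glucose to the pathway, was at 41.9, 46.8 and 44.8 CPM in MRC5_Mo and 235, 214 and 242 CPM in MRC5_CoH196, and at 78.1, 79.8 and 80.8 CPM in H196_Mo and 294, 324 and 297 CPM in H196_Co. Every co-culture library lay above every mono-culture library in both lines. The log2 changes were 2.37 (SE 0.064) and 1.94 (SE 0.060), and their difference of 0.43 (SE 0.087) was below the limit of 0.58.

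GPI, which turns glucose 6-phosphate into fructose 6-phosphate, was the glycolytic gene with a called interaction toward H196. It was at 313, 309 and 310.1 CPM in MRC5_Mo and 667, 629 and 663 CPM in MRC5_CoH196, and at 475, 491 and 505 CPM in H196_Mo and 1729, 1624 and 1633 CPM in H196_Co. The H196 libraries reached the higher level and made the larger step, 1.76 against 1.07 log2 (interaction -0.69, SE 0.076, adjusted p = 4.28e-08). Among the 239 genes that rose in both partners the interaction was called toward H196 in 3, which were GPI, SNAI1 (a repressor of E-cadherin, log2 0.76 and 1.46) and PEAR1 (a platelet receptor, 0.90 and 1.69). It was called toward MRC5 in 116 and not called in 120. Over all 261 genes changed alike, the 95% interval of the difference lay within 0.58 of 0 in 59.

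LDHA, the subunit of lactate dehydrogenase that favours lactate, started at nearly the same level in both lines. It was at 1221, 1244 and 1249.5 CPM in MRC5_Mo and 3231, 3151 and 3361 CPM in MRC5_CoH196, and at 1266, 1235 and 1297 CPM in H196_Mo and 2337, 2060.1 and 1956 CPM in H196_Co. The rise was larger in MRC5, at 1.39 against 0.74 log2 (interaction 0.65, SE 0.087). Of the lactate transporters, SLC16A3, which exports lactate, rose by 0.97 in MRC5 and 0.71 in H196, and SLC16A1 changed by -0.23 and 0.05 and was not called in either. The glucose transporters SLC2A1 (log2 2.69 and 1.27) and SLC2A3 (log2 3.66 and 1.64) rose in both lines, each with an interaction called toward MRC5. PFKFB4, which sets the level of the activator of phosphofructokinase, rose by 2.73 and 2.08, and PFKM, PKM and LDHB were not called in either line. HK1, the hexokinase of most resting tissues, rose by 0.73 and 0.91, with an interval of the difference from -0.34 to -0.01.

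**Figure D2:**
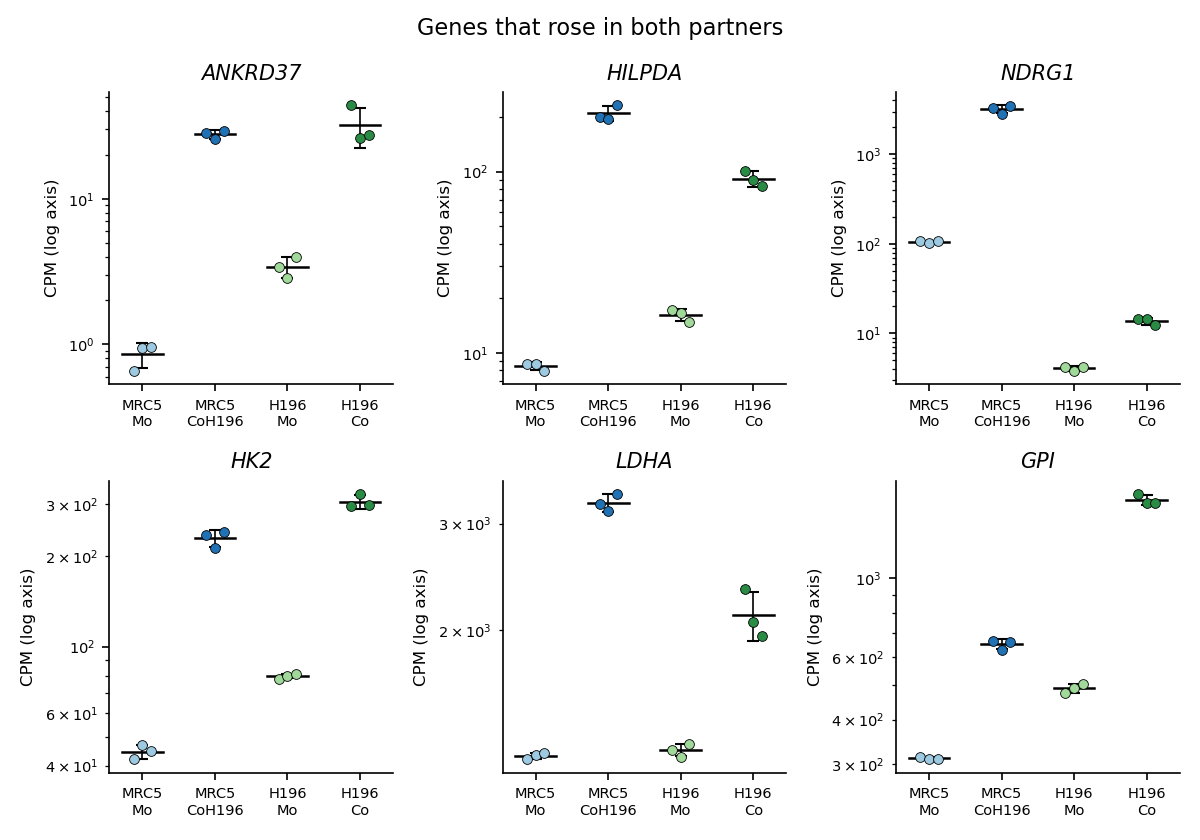
CPM on a log axis in each of the 12 libraries for 6 genes that rose in both partners, with the mean (bar) and SD (whisker, n = 3). Each co-culture group lies above its own mono-culture group, NDRG1 moves over a far lower range in H196 than in MRC5, and GPI takes its largest step in H196.

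Promoters of the genes on either side of this divide are shown for the motifs they hold. The sequences run 5′ to 3′ on the gene's strand from 250 bases before to 50 bases after the first listed start, from RefSeq on GRCh38.p14. Capitals in the first pair mark the core letters of the HIF response element, ACGTG or GCGTG on either strand, for a hypoxia reporter and a glycolytic gene that rose in both partners. Capitals in the last one mark an E2F motif (TTTCCCGC, TTTGGCGC, TTTCGCGC or TTTGCCGC on either strand), for a replication gene that fell in MRC5 only. They lie at chr4:185396591-185396890 (plus strand), chr11:18394313-18394612 (plus strand) and chr6:52284693-52284992 (minus strand).
ANKRD37: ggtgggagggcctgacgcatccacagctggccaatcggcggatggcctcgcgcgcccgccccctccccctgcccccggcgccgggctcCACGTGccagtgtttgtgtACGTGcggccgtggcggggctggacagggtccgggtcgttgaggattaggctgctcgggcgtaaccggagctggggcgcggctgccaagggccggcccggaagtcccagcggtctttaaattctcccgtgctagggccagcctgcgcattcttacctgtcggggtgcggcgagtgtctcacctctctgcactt
LDHA: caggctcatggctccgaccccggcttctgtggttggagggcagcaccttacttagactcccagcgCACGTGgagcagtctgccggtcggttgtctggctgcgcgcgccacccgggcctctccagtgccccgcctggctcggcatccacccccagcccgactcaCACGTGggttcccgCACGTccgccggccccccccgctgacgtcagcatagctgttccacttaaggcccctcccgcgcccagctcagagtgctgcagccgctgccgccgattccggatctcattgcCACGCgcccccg
MCM3: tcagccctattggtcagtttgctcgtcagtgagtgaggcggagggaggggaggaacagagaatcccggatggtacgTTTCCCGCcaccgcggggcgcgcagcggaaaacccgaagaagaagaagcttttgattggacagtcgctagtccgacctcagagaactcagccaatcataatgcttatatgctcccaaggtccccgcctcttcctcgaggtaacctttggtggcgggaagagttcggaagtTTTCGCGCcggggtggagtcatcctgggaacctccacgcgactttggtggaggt

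A promoter was matched for 9710 of the 11679 genes measured in both lines. The HIF core letters, which overlap between strands at the palindrome CACGTG, stood in 64.6% of them, in 16 of 18 hypoxia reporters (88.9%), in 15 of 22 glycolytic genes (68.2%) and in 70.9% of the 179 matched genes that rose in both partners. They also stood in 69.3% of the 1012 matched genes that fell in MRC5 only and in 55.6% of the 36 matched genes changed in H196 only. Lists with many falls in MRC5 held them too, in 19 of 20 ribosome biogenesis genes (95%) and in 20 of 27 replication genes (74.1%). A high share was therefore not particular to hypoxia reporters. The E2F motif stood in 5.62% of all matched promoters, in 17 of 27 replication genes (63.0%), in 9.09% of those that fell in MRC5 only and in 2.79% of those that rose in both. These are matches of letters and not sites of binding.

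Beyond sugar metabolism, the shared response held enzymes that modify collagen. Of 16 measured collagen-modifying enzymes, 5 rose in both partners (2.05% of all genes did). These were P4HA1 and P4HA2, which hydroxylate proline, PLOD1 and PLOD2, which hydroxylate lysine, and LOXL2, which crosslinks the fibre. PLOD1 was at 626, 617 and 583 CPM in MRC5_Mo and 1217, 1141 and 1188 CPM in MRC5_CoH196, and at 82.7, 99.2 and 96.7 CPM in H196_Mo and 197, 184 and 189 CPM in H196_Co. Its change was 0.96 in MRC5 and 1.03 in H196, with an interval of the difference from -0.26 to 0.11. SERPINH1, the collagen chaperone, fell in MRC5 only (log2 -1.04 against 0.17). None of the 9 measured collagen chains changed alike, which at 2.05% of all genes rising alike is near the background. COL1A1 fell in MRC5 (17212, 16456 and 15874 CPM in MRC5_Mo and 5737, 5559.8 and 5256 CPM in MRC5_CoH196), and in H196 it was at 0.853, 1.38 and 1.25 CPM in H196_Mo and 1.44, 1.80 and 1.44 CPM in H196_Co, too low for a call.

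Genes that ATF4 raises when amino acids run short moved in both partners as well. Of 25 measured, 12 rose in MRC5 (15.6% of all genes did) and 8 in H196 (3.03%), none fell, and 6 rose in both (2.05%), among them ASNS (asparagine synthetase, log2 1.46 and 0.85), CHAC1 (which degrades glutathione, 1.72 and 0.97), DDIT3 (the stress factor CHOP, 1.13 and 0.82) and TRIB3 (0.59 and 0.69). ASNS was at 104, 85.5 and 75.8 CPM in MRC5_Mo and 255, 244 and 229 CPM in MRC5_CoH196, and at 121, 110.3 and 125 CPM in H196_Mo and 223, 208 and 208 CPM in H196_Co. ATF4 itself changed by 0.81 in MRC5 and by 0.17 in H196 and was assigned to MRC5 only. With an absolute log2 limit of 1 none of the 6 was called in both partners.

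JUN, an immediate early factor and part of AP-1, rose by nearly equal amounts. It was at 229.6, 244 and 255 CPM in MRC5_Mo and 506, 473 and 527 CPM in MRC5_CoH196, and at 43.9, 47.2 and 44.2 CPM in H196_Mo and 96.6, 90.2 and 86.8 CPM in H196_Co. All co-culture libraries lay above their mono-cultures, with changes of 1.05 and 1.02 log2 and an interval of the difference from -0.15 to 0.21. MYC, the growth factor-induced transcription factor, rose by 0.99 and 0.63. Among 17 TGF-beta targets and feedback genes, 10 rose in MRC5 (15.6% of all genes did) and 5 in H196 (3.03%), and those that rose in both included CCN1 and CCN2. TGFB1, TGFB2, TGFBR1, SMAD7, SKIL and ID2 rose in MRC5 only.

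The 22 genes that fell in both partners included the fatty acid and cholesterol enzymes FASN, ACACA and IDI1, the transferrin receptor TFRC and the cell cycle inhibitor CDKN2B. FASN, which makes palmitate, was at 197, 203 and 203 CPM in MRC5_Mo and 92.6, 85.5 and 84.6 CPM in MRC5_CoH196, and at 407, 502 and 484 CPM in H196_Mo and 245, 291 and 322 CPM in H196_Co. Both co-cultures lay below their mono-cultures, with changes of -1.20 (SE 0.083) and -0.70 (SE 0.077) log2. DSEL, a dermatan sulfate epimerase, had the largest fall in the lesser of its changes (log2 -1.18 and -1.02) among genes over 5 CPM in each line, followed by WDR5B, a paralog of the histone methylation cofactor WDR5 (-1.24 and -0.79), FASN, and SLC2A6, a glucose transporter family member (-1.06 and -0.70). TFRC fell more in MRC5 than in H196 (log2 -2.24 against -0.60, interaction -1.63, SE 0.10). NMI, an interferon-inducible protein, did so too (log2 -1.29 against -0.60), and the interaction of 19 of the 22 was not called. CCL2, the monocyte chemokine, was the one shared faller with a called interaction toward H196 (log2 -0.66 and -1.91).

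Many genes of DNA replication fell in MRC5. Of 32 DNA replication genes, 26 fell in MRC5 (14.9% of all genes did), none was called in H196, and 25 fell in MRC5 only, among them all 6 measured subunits of the MCM2 to MCM7 helicase. The median log2 change of the list was -0.90 in MRC5 and -0.02 in H196. MCM10, which loads replication factors at origins, was at 16.3, 18.00 and 17.4 CPM in MRC5_Mo and 5.98, 6.24 and 7.58 CPM in MRC5_CoH196. In H196 it was at 28.8, 24.4 and 27.1 CPM in H196_Mo and 22.5, 25.7 and 27.1 CPM in H196_Co, and those groups overlapped. The interaction was -1.29 (SE 0.14, adjusted p = 4.15e-08), and it was below 0 for every one of the 32 genes. RRM2, the ribonucleotide reductase subunit that limits nucleotide supply, and UHRF1, which helps copy DNA methylation, fell in MRC5 only (log2 -1.07 and -1.38), against 0.20 and -0.11 in H196. In bulk libraries fewer dividing cells and less RNA of these genes per cell cannot be told apart.

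Mitotic genes followed less evenly. Of 26, 14 fell in MRC5 (14.9% of all genes did) and 9 in MRC5 only (10.2%). None was called in H196, where few genes were. The 9 became 7 to 12 when single libraries were left out. CDC20, an activator of the anaphase-promoting complex, was at 119, 128 and 147 CPM in MRC5_Mo and 65.3, 61.9 and 65.5 CPM in MRC5_CoH196, and at 284, 278 and 281 CPM in H196_Mo and 381, 326 and 364 CPM in H196_Co. It fell in MRC5 (log2 -1.03), while all H196_Co libraries lay above the H196_Mo libraries with a change of 0.35, under the limit. CDK1 and TOP2A were not called in either line. CDKN1A, the p21 inhibitor of cyclin-dependent kinases, rose in MRC5 only (log2 0.90 against 0.19), as did CDKN1B (p27, 0.70 against 0.07).

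Genes that assemble ribosomes fell in the same one-sided way. Of 26 measured, 18 fell in MRC5 only (10.2% of all genes did), with list medians of -0.90 in MRC5 and 0.08 in H196. RRP9, a component of the small nucleolar particle that processes ribosomal RNA, was at 27.6, 31.2 and 31.8 CPM in MRC5_Mo and 10.9, 9.36 and 8.83 CPM in MRC5_CoH196, and at 21.2, 26.00 and 24.7 CPM in H196_Mo and 27.03, 23.02 and 27.6 CPM in H196_Co. Its interaction was -1.75 (SE 0.14). NOP56, a core nucleolar protein, and POLR1B, a subunit of RNA polymerase I, fell in MRC5 only (log2 -1.32 and -1.33), against 0.03 and 0.10 in H196. MYC, which raises such genes, was the member of the list that rose in both partners, a call it lost on both FPKM scales. The mRNAs of the ribosomal proteins themselves were called in neither line in 30 of 30 cases, with medians of 0.21 in both and differences between partners from -0.23 to 0.28.

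Several chaperones of the endoplasmic reticulum (ER) fell in MRC5 as well. Of 19 genes of ER chaperones and the unfolded protein response, 7 fell in MRC5 only (10.2% of all genes did). Another 2 rose in MRC5 (15.6% of all genes did). None was called in H196, where 3.03% of all genes rose and 0.514% fell. HYOU1, an ER chaperone, was at 227, 232 and 238 CPM in MRC5_Mo and 89.9, 81.4 and 86.5 CPM in MRC5_CoH196, and at 135, 136 and 143 CPM in H196_Mo and 139.5, 134 and 147 CPM in H196_Co. It fell in MRC5 (log2 -1.43), as did HSPA5, the chaperone BiP (-0.81), against 0.03 and 0.04 in H196. In the Hallmark annotation of the files, 77 of 200 E2F targets and 35 of 58 genes of the second MYC target set fell in MRC5 only, against 10.2% of all genes, and 53 of 158 hypoxia genes rose in both partners, against 2.05%. The 26 of 198 oxidative phosphorylation genes that fell in MRC5 only are near the share of all genes. Of 111 Hallmark unfolded protein response genes, 24 fell and 20 rose in MRC5 (14.9% and 15.6% of all genes did). Of 30 genes of the respiratory chain and TCA cycle on the chosen list, IDH3A (-0.98 against -0.17) and FH (-0.83 against -0.11) fell in MRC5 only, a share below that of all genes, and the others were called in neither arm.

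**Figure D3:**
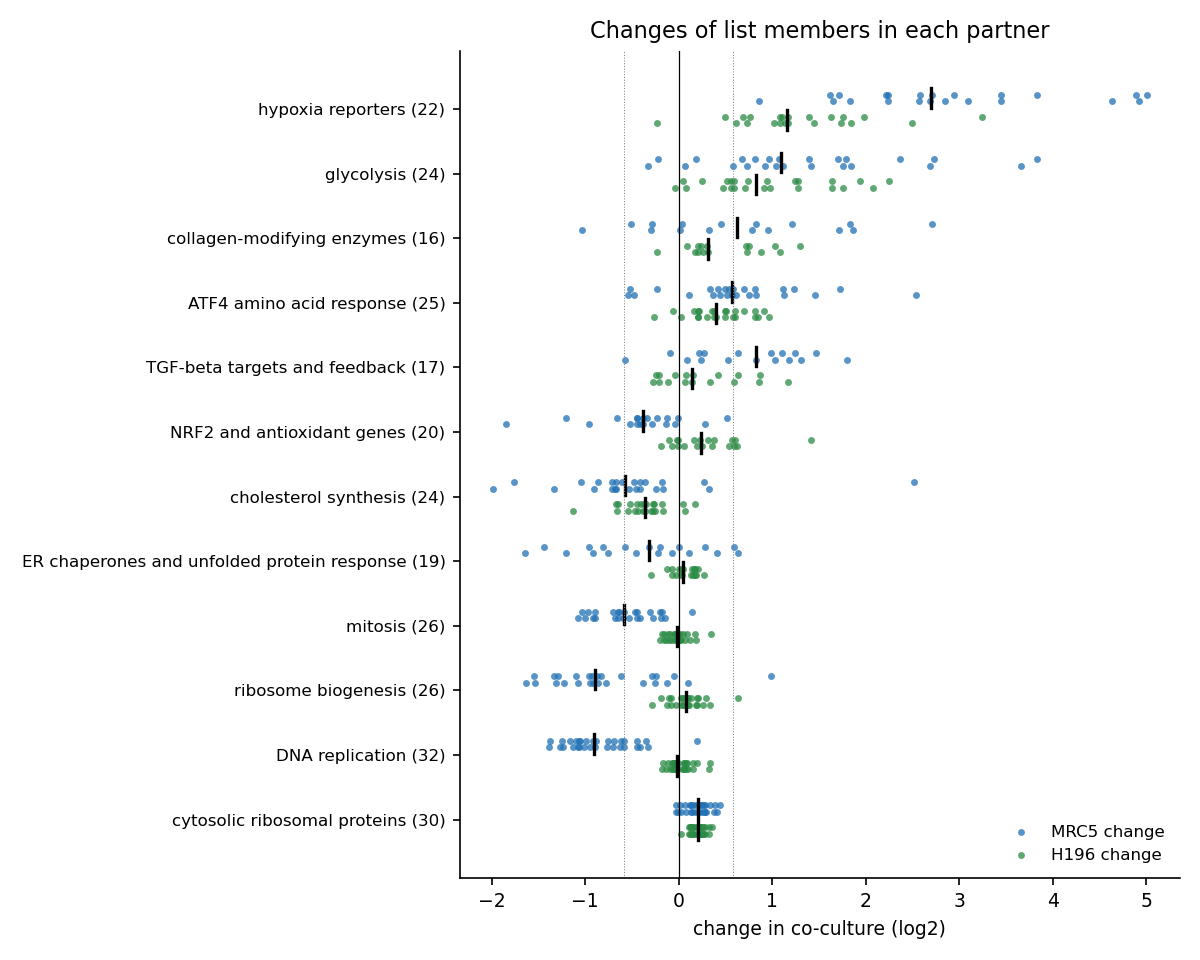
Log2 change of each list member in MRC5 (blue) and H196 (green), with the list median as a black bar, the number of genes measured in both lines in parentheses and dotted lines at the limits of -0.58 and 0.58. Most hypoxia and glycolysis genes lie to the right in both partners, most DNA replication and ribosome biogenesis genes lie to the left in MRC5 and around 0 in H196, and ribosomal protein genes lie within the limits in both.

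Among genes over 5 CPM in both lines whose libraries did not overlap between the MRC5 groups (72.1% of all tested genes, and 35.3% between the H196 groups), those that rose in MRC5 only with the largest interactions were ERRFI1, C15orf48, ARHGAP45 and PLIN2. ERRFI1, a feedback inhibitor of the EGF receptor, was at 91.5, 90.6 and 85.5 CPM in MRC5_Mo and 1954, 1758 and 2074 CPM in MRC5_CoH196. It was already high in H196, at 721, 729.5 and 744 CPM in H196_Mo and 965, 961 and 862 CPM in H196_Co, where its change of 0.35 stayed under the limit (interaction 4.09, SE 0.090). PLIN2, which coats lipid droplets, was at 105, 111 and 115 CPM in MRC5_Mo and 1117, 1090.5 and 1179 CPM in MRC5_CoH196, and at 31.97, 34.9 and 34.6 CPM in H196_Mo and 47.6, 43.5 and 43.9 CPM in H196_Co. C15orf48, a small mitochondrial protein, rose in MRC5 by 3.71 log2 to a mean below that of either H196 group, and ARHGAP45, a GTPase-activating protein, by 3.64. Both interactions kept their size with partner RNA subtracted, at 3.81 and 3.28 log2. Those that fell in MRC5 only with the largest interactions were CORO1A (an actin-binding coronin, -1.95), NETO2 (a receptor subunit of kainate channels, -2.00), POLR3K (a subunit of RNA polymerase III, -1.76) and WDR4 (a subunit of a tRNA methyltransferase, -1.87), against 0.11, 0.03, 0.21 and 0.07 in H196.

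The response that belonged to H196 was small and mixed. Of its 44 genes, 28 passed a mean of 5 CPM in both lines. SDC1, the heparan sulfate proteoglycan syndecan-1, was at 6.37, 6.52 and 5.90 CPM in H196_Mo and 11.7, 11.6 and 12.6 CPM in H196_Co. In MRC5 it was far higher and moved the other way within the limit, at 130, 133 and 139 CPM in MRC5_Mo and 100.1, 98.9 and 98.2 CPM in MRC5_CoH196 (interaction -1.37, SE 0.11). FKBP4, a cochaperone of HSP90 and steroid receptors, was at 224, 254 and 251 CPM in H196_Mo and 473, 431 and 440.1 CPM in H196_Co, and at 105, 120.1 and 117 CPM in MRC5_Mo and 95.1, 87.3 and 86.2 CPM in MRC5_CoH196. KLF2, a Krüppel-like factor, rose by 1.04 in H196 against -0.14 in MRC5, and CDC42EP1, an effector of the small GTPase CDC42, by 0.76 against -0.43. MMP14, a membrane-bound collagenase, rose by 0.70 and changed by 0.02 in MRC5. EPAS1, which encodes HIF-2-alpha, rose by 0.99 in H196 at a mean of 1.21 CPM against 448 CPM in MRC5. With partner RNA subtracted 39 genes were assigned to this class.

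SCD, the desaturase that makes oleate, had the largest interaction among the genes over 5 CPM that fell in H196 only. It was at 990.4, 1001 and 973 CPM in H196_Mo and 512, 593 and 554 CPM in H196_Co, and at 138, 118 and 125 CPM in MRC5_Mo and 167, 168 and 170.1 CPM in MRC5_CoH196. The H196 groups lay apart while the MRC5 change of 0.41 log2 stayed under the limit (interaction 1.25, SE 0.087, adjusted p = 1.83e-11). MEF2C, a transcription factor of muscle and neural lineages, fell as well (log2 -0.93), as did PPP1R3D, which targets protein phosphatase 1 to glycogen (-0.72), and TENT5A, a poly(A) polymerase (-0.66). Their MRC5 changes were 0.29, 0.26 and 0.15, each with an interval inside the limits.

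HMOX1, the heme oxygenase that antioxidant signals raise, made the widest opposite move. It was at 43.5, 39.8 and 39.6 CPM in MRC5_Mo and 13.7, 10.6 and 9.76 CPM in MRC5_CoH196, and at 23.1, 23.8 and 25.7 CPM in H196_Mo and 67.98, 59.9 and 66.00 CPM in H196_Co. MRC5 stood above H196 in mono-culture and below it in co-culture. The changes were -1.85 (SE 0.10) and 1.42 (SE 0.081) log2, and the interaction was -3.26 (SE 0.13, adjusted p = 2.44e-16). HMOX1 is a target of NRF2, the antioxidant transcription factor. Of 20 measured NRF2 targets and antioxidant genes, HMOX1 included, 4 fell in MRC5 (14.9% of all genes did) and none rose, 4 rose in H196 (3.03% of all genes did) and none fell. Without HMOX1 these are 3 of 19 in each line, and for MRC5 that is near the share of all genes. In the 20, the interaction was called with the MRC5 change lower in 12, again with HMOX1 (14% of all genes did), and higher in 1, which was GCLC. The 12 became 8 to 12 when single libraries were left out. GCLM, a subunit of the enzyme that starts glutathione synthesis, was at 62.9, 57.3 and 60.96 CPM in MRC5_Mo and 28.01, 31.7 and 33.5 CPM in MRC5_CoH196, and at 44.1, 32.9 and 35.5 CPM in H196_Mo and 55.5, 58.2 and 49.5 CPM in H196_Co, where the change of 0.54 stayed under the limit. SLC7A11, the cystine importer, rose by 0.60 in H196 against -0.52 in MRC5, and OSGIN1 and the ferritin chain FTH1 rose in H196 only (0.62 and 0.59).

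EGR1, an immediate early transcription factor, moved as HMOX1 did. It was at 127, 127 and 133 CPM in MRC5_Mo and 85.5, 76.8 and 74.5 CPM in MRC5_CoH196, and at 26.6, 20.7 and 18.98 CPM in H196_Mo and 46.6, 45.3 and 36.8 CPM in H196_Co. The interaction was -1.67 (SE 0.13). FOS, its companion in early gene responses, changed by -0.66 in MRC5 and 0.62 in H196 and was under 5 CPM in 1 or both lines. NR4A3, a nuclear receptor of the early response, changed by 0.89 and -1.43 at means of 1.17 and 1.27 CPM. The remaining genes that rose in H196 and fell in MRC5 were IGFBP2, PDGFA, UCN2, MMP15, IL6R, NPTXR, GALNT16 and OR7E24, all under 5 CPM in one or both lines.

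Of the genes that rose in MRC5 and fell in H196, those over 5 CPM with the largest lesser change were DACT1, ABCA1, HDAC9 and BMF. DACT1, an antagonist of Wnt signalling, was at 11.3, 10.9 and 10.7 CPM in MRC5_Mo and 22.2, 19.4 and 25.3 CPM in MRC5_CoH196, and at 43.7, 49.01 and 49.3 CPM in H196_Mo and 25.2, 22.8 and 21.8 CPM in H196_Co. Co-culture brought the partners from levels several-fold apart to overlapping ones. HDAC9, a class IIa histone deacetylase, was at 10.96, 10.9 and 9.87 CPM in MRC5_Mo and 27.3, 29.5 and 30.3 CPM in MRC5_CoH196, and at 31.6, 28.7 and 28.4 CPM in H196_Mo and 15.9, 18.3 and 16.5 CPM in H196_Co. BMF, which promotes apoptosis, changed by 0.71 and -0.79, TP53INP1, a p53 target, by 0.74 and -0.62, and the neural adhesion gene NCAM2 by 0.59 and -0.76. RGPD4, one of several near-identical copies whose reads counting could split, changed by 1.16 and -0.88 and is uncertain.

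Sterol genes held the largest opposite move in this direction. INSIG1, which helps keep the transcription factor SREBP in the endoplasmic reticulum, was at 35.03, 32.6 and 33.04 CPM in MRC5_Mo and 179, 199 and 196.5 CPM in MRC5_CoH196, and at 76.9, 69.6 and 75.5 CPM in H196_Mo and 49.6, 47.8 and 43.2 CPM in H196_Co (interaction 3.17, SE 0.094). ABCA1, which exports cholesterol, was at 39.6, 36.1 and 34.3 CPM in MRC5_Mo and 85.6, 88.2 and 88.2 CPM in MRC5_CoH196, and at 24.6, 24.1 and 25.6 CPM in H196_Mo and 11.9, 15.3 and 15.02 CPM in H196_Co. All 3 libraries of each co-culture lay apart from the mono-culture for both genes. The list of cholesterol genes had medians of -0.57 in MRC5 and -0.36 in H196. Of 24 measured, 12 fell in MRC5 (14.9% of all genes did) and 4 in H196 (0.514%), with IDI1 falling in both (4 genes did on log2(FPKM + 0.1)) and EBP and PMVK among those falling in MRC5 only. PMVK, a kinase of the mevalonate pathway, changed by -1.05 in MRC5 and 0.17 in H196 (log2). SREBF1, which encodes SREBP-1, fell in H196 (log2 -1.13) and changed by -0.41 in MRC5 (interaction 0.72, SE 0.12).

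**Figure D4:**
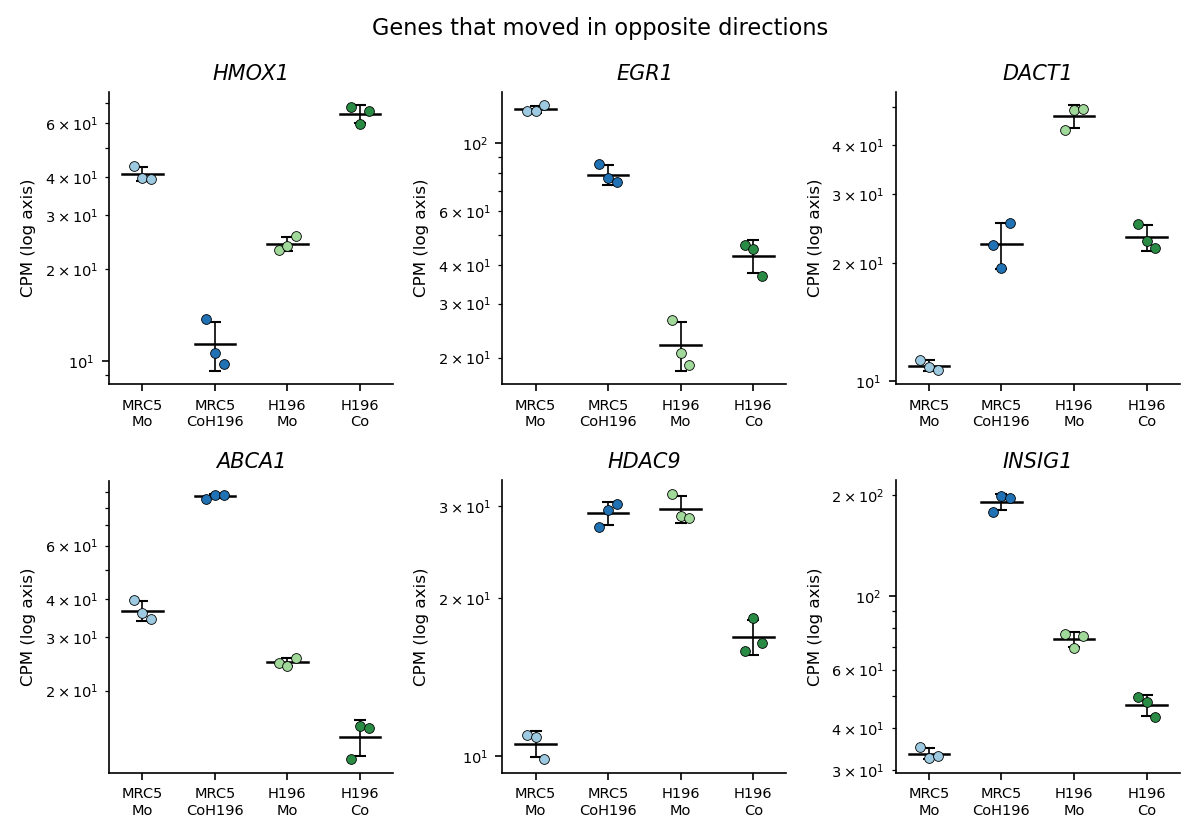
CPM on a log axis in each of the 12 libraries for 6 genes that moved in opposite directions, with the mean (bar) and SD (whisker, n = 3). HMOX1 and EGR1 fall in MRC5 and rise in H196, and DACT1, ABCA1, HDAC9 and INSIG1 rise in MRC5 and fall in H196.

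The genes that the study names divided as well. FGF5, a secreted fibroblast growth factor, changed by 0.50 in MRC5 and -0.22 in H196, neither past the limit, while the interaction of 0.72 (SE 0.092) was called. CAV1, which builds caveolae, changed by -0.35 in MRC5 and 0.03 in H196 and was not called. The study reports a significant fall of CAV1 in MRC5_CoH196 from FPKM of the same groups, which is a different criterion from the call used here. ITGB4, an integrin of epithelial attachment, was at 0.536, 0.829 and 0.602 CPM in MRC5_Mo and 1.84, 0.995 and 1.71 CPM in MRC5_CoH196. ITGB4 was assigned to MRC5 only. Its interaction of 0.92 (SE 0.34, adjusted p = 0.0211) was not called without the first MRC5_Mo library (adjusted p = 0.0523) or without the first MRC5_CoH196 library (adjusted p = 0.0620), nor on either FPKM scale. ACTA2, smooth muscle actin, changed by -0.47 in MRC5 and 0.24 in H196 with a called interaction of -0.70 (SE 0.11). FGF17, HLA-DRA and CCL5 were not among the genes tested.

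HLA-B and HLA-C, whose near-identical stretches can share reads, rose in MRC5 by 0.81 and 0.74 and changed in H196 by 0.28 and 0.27. The differences of 0.54 and 0.48 stayed under the limit. For HLA-B the difference passed it under 8 of 27 alternatives, at 0.58 to 0.65. HLA-E, a ligand of natural killer receptors, rose in MRC5 only (0.82 against 0.23) and TAP2, a subunit of the peptide transporter, fell there only (-0.83 against -0.06). Of the 18 measured genes of MHC class I and peptide loading, 4 rose and 5 fell in MRC5 (15.6% and 14.9% of all genes did). The falls were TAP2, PSMB10, PSME2, ERAP2 and NLRC5. None of the 18 was called in H196, where 3.03% of all genes rose and 0.514% fell.

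Some changes could be seen in one line alone. In MRC5, 767 tested genes passed the filter only there, of which 245 rose and 137 fell, and in H196, 1045 passed only there, of which 93 rose and 10 fell. Over all tested genes 16.8% rose and 14.2% fell in MRC5, and 3.44% rose and 0.554% fell in H196. A gene could pass the filter through either group of a line alone, co-culture included. The filter thus favours large changes here, and these counts are not read as a result. ISM2, a secreted isthmin, was at 0.0596, 0 and 0 CPM in MRC5_Mo and 8.22, 6.64 and 9.43 CPM in MRC5_CoH196, and MT3, a metallothionein, at 0.0596, 0 and 0 CPM in MRC5_Mo and 7.43, 5.04 and 7.05 CPM in MRC5_CoH196, so all 3 mono-culture libraries were at or near 0 for both. CXCR4, the chemokine receptor, was at 0.10, 0.0476 and 0.144 CPM in H196_Mo and 1.49, 1.18 and 1.65 CPM in H196_Co. For such genes no statement about the other partner is made.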

How the data were processed

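Poly(A) RNA of 12 libraries was sequenced on BGISEQ. Per the submitters' processing notes, reads were processed with HISAT2 2.1.0, Bowtie2 2.3.4.3 and RSEM 1.3.1 on GRCh38.p13. The expected counts deposited by the authors were rounded and joined by gene ID over the MRC5 table (16382 genes) and the H196 table (16076). FPKM values calculated by the authors served as alternatives only. The tables also hold the authors' fold changes and p-values, and 30 further columns of per-library values, which were not used. A gene listed in 1 table only (1062 and 756) was not compared.

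Counts were filtered with filterByExpr, scaled by TMM over all 12 libraries (factors 0.79 to 1.24) and fitted with edgeR 4.0.16 in R 4.3.3 (quasi-likelihood, 4 groups, no block). A call required p under 0.05 after Benjamini-Hochberg adjustment together with a log2 value beyond 0.58 either way. SE is the standard error of a log2 value. Scripts were tested on simulated data. Alternatives were DESeq2 1.42.0, limma 3.58.1 on log2 FPKM with a pseudocount of 1 or 0.1, changed filters and limits, a replicate block, and each library left out. Subtraction of partner RNA was chosen after the data were seen.

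Named genes had a mean of at least 5 CPM in each line and libraries that did not overlap where called, and were ranked within each class by the lesser change (shared and opposite) or by the interaction (one-sided, and shared genes larger in 1 partner). Members of the lists described, genes the study names, and the members of small classes were added, the last after their values were seen. Members and lists were chosen with earlier results of these data known. A 3-count floor equals 0.156 to 0.187 CPM, and covers counting error only. With 3 libraries a group, no exact permutation test of 1 gene was run. Some genes that meet these rules are not reported here. Promoter sequences came from RefSeq by gene symbol, with the first listed start.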

Additional observations from a re-analysis of the deposited data

Results flagged for a closer look

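The change in MRC5 differed from the change in H196 by the interaction term (edgeR, adjusted over 13540 genes) in 3343 genes, and in 34 of the genes named. Each value below is the MRC5 change minus the H196 change on the log2 scale. Among shared genes it was 1.77 for ANKRD37, 2.13 for HILPDA, 0.65 for PFKFB4, 2.91 for ANGPTL4, 3.18 for NDRG1, 2.69 for VEGFA, 0.65 for LDHA and -0.69 for GPI. Among genes of MRC5 only it was 4.09 for ERRFI1, 3.81 for C15orf48, 3.29 for ARHGAP45, 2.94 for PLIN2, 0.92 for ITGB4, -2.05 for CORO1A, -2.03 for NETO2, -1.97 for POLR3K, -1.94 for WDR4 and -0.81 for IDH3A. Among genes of H196 only it was -1.37 for SDC1, -1.23 for FKBP4, -1.18 for KLF2, -1.18 for CDC42EP1, 1.25 for SCD, 1.22 for MEF2C, 0.99 for PPP1R3D and 0.81 for TENT5A. Among genes that moved in opposite directions it was 2.05 for DACT1, 2.07 for ABCA1, 2.26 for HDAC9, 1.5 for BMF, -3.26 for HMOX1 and -1.67 for EGR1. For the remaining genes it was 0.72 for FGF5 and -0.70 for ACTA2.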

How the results depend on the processing

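Counts stayed within 1.5 times the reported ones in 26 of 27 alternatives for the interaction, the MRC5 change and genes of MRC5 only, in 25 for genes changed alike, and in 24 for the H196 change, genes of H196 only and opposite genes. An absolute log2 limit of 1 left 1243 genes in the interaction, 1716 in MRC5, 167 in H196, 75 alike, 698 in MRC5 only, 8 in H196 only and 2 opposite. Log2(FPKM + 1) left 191 in H196, 118 alike, 11 in H196 only and 8 opposite, and log2(FPKM + 0.1) gave 24 in H196 only. A minimum of 10 counts left 322 in H196, and an adjusted p under 0.01 left 12 opposite. The cause of these shifts other than the changed limit was not tested. Leaving out single libraries gave 3156 to 3510 for the interaction, 3996 to 4250 for MRC5, 451 to 561 for H196, 229 to 269 alike, 1955 to 2128 in MRC5 only, 35 to 53 in H196 only and 16 to 26 opposite.

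On the FPKM scales the split of rising and falling genes moved. In MRC5 it was 898 to 2060 with a pseudocount of 1, and in H196 it was 147 to 44. Genes alike split 165 to 41 with a pseudocount of 0.1. Genes of MRC5 only split 453 to 1248 with a pseudocount of 1 and 611 to 1543 with 0.1. The differences of CXCR4 (-0.50 and -0.57) and STRC (-0.27 and -0.72) changed sign there. Both are near 0 in MRC5. On both scales 13 glycolytic genes rose in both partners (16 reported) and 19 hypoxia reporters (20). Of 1372 values for named genes under alternatives, 17 gained and 15 lost a call.

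Same-numbered libraries did not deviate together (correlations from -0.0137 to 0.00301 in MRC5 and from -0.110 to 0.0293 in H196). With 3 libraries per group these values cannot exclude pairing, and the main fit used no block. A replicate block shared by both lines gave 3322 interaction calls, 257 genes alike and 2072 in MRC5 only, and a block within each line gave 3323, 254 and 2063. Depth limits genes near the floor.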

Other observations

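Growth factor and feedback genes divided between the partners in several ways. Of 9 measured genes of the IGF axis, 6 rose and 1 fell in MRC5 (15.6% and 14.9% of all genes did). In H196 3 rose (3.03% of all genes did). IGF2 (a ligand, log2 1.58 in MRC5 and 0.72 in H196) and IGFBP3 (a carrier of IGFs, 4.38 and 1.35) rose in both. The receptors IGF1R (1.24 and 0.29) and INSR (1.43 and 0.39) rose in MRC5 only, and the carrier IGFBP2 moved in opposite directions (-0.66 and 1.17). IGFBP3 was at 342, 392 and 404 CPM in MRC5_Mo and 7689.9, 7606 and 8379 CPM in MRC5_CoH196, and at 0.703, 0.286 and 0.479 CPM in H196_Mo and 1.70, 1.03 and 1.03 CPM in H196_Co. Its libraries lay apart in both lines and the step was far larger in MRC5. The H196 levels were low. At the level in MRC5_CoH196, a share of up to 0.0133% MRC5 RNA in H196_Co would be similar in size to the H196 rise. How much of that rise was MRC5 RNA was not tested. Of 20 genes of FGF signalling and ERK feedback, DUSP5, an ERK phosphatase, rose in both (1.46 and 0.75), while SPRY1 (1.96 and 0.09), SPRED1 (0.72 and -0.17) and DUSP6 (0.68 and -0.06), which restrain the same pathway, rose in MRC5 only. In all, 6 of the 20 rose and 2 fell in MRC5. Over all genes 7.72% rose in MRC5 only, and the 3 one-sided genes of this list became 5 without the third MRC5_CoH196 library.

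Of 17 measured interferon-stimulated genes, 6 rose and 2 fell in MRC5 (15.6% and 14.9% of all genes did), and none was called in H196, where 3.03% of all genes rose and 0.514% fell. IFI6 (1.45 and 0.10) and IFIT1 (0.98 and -0.07), which are textbook interferon targets, rose in MRC5 only, while OAS3, which makes the activator of RNase L, fell there only (-0.78 and -0.14). The interaction was called toward MRC5 in 5 of the 17 (12.4% of all genes measured in both lines) and in 3 without the third H196_Mo library. The Hallmark interferon alpha set was mixed, with 9 of 72 rising and 11 falling in MRC5. In H196 1 of that set rose and 4 fell. Of 21 cyclin-dependent kinase inhibitors and p53 targets, 9 rose and 5 fell in MRC5, and 1 rose and 2 fell in H196. GDF15, a stress cytokine, rose in MRC5 only (1.90 and 0.20), and FAS, the death receptor, fell in MRC5 only (-0.82 and -0.22). CDKN1C, the inhibitor p57, rose in both (1.41 and 1.02). Of 9 measured inflammatory cytokine and NF-kB feedback genes, 2 rose and 3 fell in MRC5, and 1 fell in H196. TNFAIP3 and BIRC3, which are feedback genes of the pathway, rose in MRC5 only (1.56 and 1.14, against 0.13 and -0.31 in H196), while NFKB1 fell there only (-1.17 against -0.16).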
